A study of Mus musculus with 4 samples.

Results

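Long noncoding RNAs that host small nucleolar RNAs (snoRNAs) or that are known from embryonic stem cells (ESCs) were followed in mouse ESCs depleted of the m6A reader YTHDF2. The members were chosen by name: every row of the count table named Snhg or Platr followed by a number, together with Gas5, Dancr, Neat1, Malat1, Miat, Tug1, Firre, Fendrr, Pvt1, Rmst and Lncenc1. This gave 46 of the 49997 rows. They fall into 19 snoRNA hosts (17 Snhg rows, Gas5 and Dancr), 19 ESC transcripts (18 Platr rows and Lncenc1) and 8 other long noncoding RNAs (lncRNAs). 40 members passed the filter on low counts and were tested, and 6 did not.

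The cells were the E14 line, grown on gelatin in serum replacement with leukemia inhibitory factor. Per the study's methods they carried a tdTomato reporter driven by the MERVL promoter, and stable lines were made with a lentiviral hairpin and puromycin. 2 libraries came from cells with a scrambled hairpin (shScramble) and 2 from cells with a hairpin against Ythdf2 (shYthdf2). The study's methods call the replicates biologically independent. Neither they nor the labels say whether the replicates are separate stable lines or which Ythdf2 hairpin these libraries carry, and the p-values measure the spread between these libraries.

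A snoRNA guides the chemical modification or cleavage of ribosomal RNA and lies in most cases within an intron of a host gene. The spliced exons of many noncoding hosts leave the nucleus and are removed by nonsense-mediated decay, so host RNA and snoRNA from one precursor can have very different lifetimes. Several hosts start with a run of pyrimidines (a 5′ TOP start), as the mRNAs of ribosomal proteins do. The Platr RNAs (pluripotency-associated transcripts) were named for their ESC-enriched expression, and Lncenc1 is an abundant lncRNA of naive ESCs. Neat1 builds paraspeckles and Malat1 resides in nuclear speckles. YTHDF2 binds m6A-bearing RNA in the cytoplasm and promotes its decay.

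The letters around the start of 8 hosts are shown. Of these, 7 carry a run of at least 5 pyrimidines near a start and Snhg11, the host with the largest fold change, does not. In Snhg3, Snhg1 and Snhg5 the run begins at base 3, 5 and 8 from the annotated start, not at the first base. Snhg11 is not alone in this: Dancr, Snhg14, Snhg15 and Snhg20, not shown, also lack a run of at least 5 pyrimidines. Each line holds 20 bases before and 20 bases from the annotated RefSeq start (GRCm38, the same assembly as mm10), 5′ to 3′ on the strand of the gene. Capitals mark the longest pyrimidine run on that strand that touches positions -5 to 10.
Snhg11, chr2:158375693-158375732, plus strand: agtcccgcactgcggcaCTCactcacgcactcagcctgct
Snhg3, chr4:132353667-132353706, minus strand: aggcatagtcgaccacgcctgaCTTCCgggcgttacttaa
Gas5, chr1:161035146-161035185, plus strand, the second of its starts: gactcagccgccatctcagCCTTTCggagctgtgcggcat
Snhg8, chr3:123508317-123508356, minus strand: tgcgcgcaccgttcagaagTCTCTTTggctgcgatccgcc
Snhg7, chr2:26640225-26640264, minus strand: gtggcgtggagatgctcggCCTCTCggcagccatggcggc
Snhg12, chr4:132308658-132308697, plus strand: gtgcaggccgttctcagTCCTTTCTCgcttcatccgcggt
Snhg1, chr19:8723467-8723506, plus strand: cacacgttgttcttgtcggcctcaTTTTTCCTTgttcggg
Snhg5, chr9:88522878-88522917, minus strand: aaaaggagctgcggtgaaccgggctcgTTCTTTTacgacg

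A run of at least 5 pyrimidines was present in 12 of 19 host promoters (63.2%), in 7 of 16 promoters of Platr RNAs and Lncenc1 (43.8%) and in 12491 of all 32851 promoters (38.0%). Promoter sequences were at hand for 36 of the 46 members. Snhg12 and Snhg1 had the longest runs of the 8 starts shown, 9 bases each, and Snhg11 had 3. A pair of motifs was searched on both strands from 250 bases before to 50 bases after each start. The octamer ATGCAAAT was found in 1 of the 40 member promoters, that of Platr21, and in 1.74% of all promoters. CACGTG was found in 4 of the 40 member promoters and in 7.15% of all. These matches describe the letters only.

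The targeted gene was checked first. Ythdf2 read counts were 3365 and 2760 for shScramble and 1086 and 1082 for shYthdf2, which left 34.2% of the control level (log2 fold change -1.55, edgeR adjusted p = 0.00069). The libraries held 31113006 to 36422510 counted reads, so that 3 reads, the limit that a count of 0 allows, correspond to 0.0833 to 0.0952 CPM, the read count scaled for library size. These limits count sampling of reads and nothing else. Levels below are CPM after TMM scaling, log2 fold changes are shYthdf2 over shScramble, and adjusted p-values are from edgeR's quasi-likelihood test with Benjamini-Hochberg adjustment over all 18341 genes tested. The ESC markers were expressed throughout, with summed levels of 6300 and 6090 CPM in shScramble and 5940 and 5420 CPM in shYthdf2, and 1 of 8 was called (Tdgf1, log2 fold change -0.47, lower). Markers of other states differed too: the 11 2-cell-like markers summed to 33.8 and 53.7 CPM against 68.5 and 202 CPM, and 2 of the 10 tested were called higher (Zscan4a, 2.28, and Usp17la, 1.29). The 6 fibroblast-associated markers summed to 205 and 216 CPM against 447 and 384 CPM, of which Vim alone gave 188, 198, 438 and 368 CPM, with Dcn at 0 reads in every library. Vim (log2 fold change 1.06) was the one fibroblast-associated marker called, and Col1a1 (-0.94) and Thy1 (-0.41) had negative values. Their part in the results below was not tested. In these bulk libraries, fewer cells of a type and less RNA per cell cannot be told apart.

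Per kilobase of exon, Lncenc1 was the most abundant member with a mean of 125 over the 4 libraries on the RPKM scale (CPM divided by the exon length in kilobases). The hosts Snhg1 (93.9 RPKM), Snhg3 (79.3 RPKM), Snhg5 (55.3 RPKM) and Gas5 (54.7 RPKM) followed by this mean, then Malat1 with 50.5 RPKM. Snhg5, Gas5 and Malat1 lay within one another's spread over the libraries, and their order is not resolved. Platr10 and Snhg20, each at 45.4 RPKM, stood level with Snhg12 at 42.9 RPKM. By group mean, the order of the leading hosts differed between the groups. Snhg3 had 94.8 RPKM in shScramble and 63.9 in shYthdf2, beside 92.0 and 95.9 for Snhg1. In shScramble the libraries of Snhg3 and Snhg1 overlapped per kilobase, so their order there is not resolved. Gas5 had 62.2 and 47.1 RPKM, beside 56.3 and 54.3 for Snhg5. At the low end of the tested members were Platr9 (0.253 RPKM) and Miat (0.226 RPKM).

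**Figure D1:**
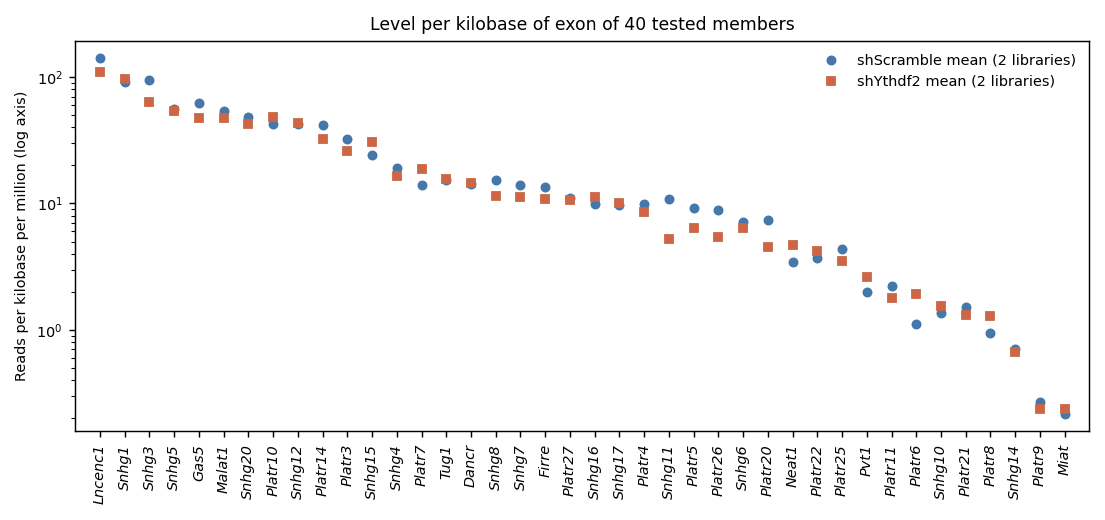
Mean level per kilobase of exon, on a log axis, of the 40 tested members in shScramble (circles) and shYthdf2 (squares), in order of the mean of 4 libraries. The members span from 0.226 RPKM (Miat) to 125 RPKM (Lncenc1), and the largest gap between the symbols of a host is that of Snhg11.

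The question put to these data was whether the members' RNA levels differ between control and Ythdf2-depleted ESCs. Both hosts that passed the threshold, Snhg11 and Snhg3, were lower in shYthdf2, and no member was called higher. 2 of the 40 tested members were thus called lower (5.00%), where the share was 1.49% of all genes tested, and 0 were called higher, where it was 2.43%. At an unadjusted p under 0.05 stood 11 members, 8 lower and 3 higher, where 20.8% of all genes tested did. Both shYthdf2 libraries lay below both shScramble libraries for 15 members (25.5% of all genes) and above them for 6 (26.2%). The median log2 fold change of the 40 members was -0.16, beside 0.00 over all genes tested.

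Snhg11 is a spliced noncoding host on chr2:158375713-158386474 (plus strand, mm10), with 6118 bases of exon. Its level was 56.3 and 75.5 CPM for shScramble against 27.0 and 36.9 CPM for shYthdf2, from 2028, 2378, 924 and 1319 reads. The groups did not overlap, and replicate 2 was the higher in each. Snhg11 fell to 0.485 of the control level, a log2 fold change of -1.04 (SE 0.18, 95% interval -1.45 to -0.64, adjusted p = 0.017). Of the 13 other settings that test single genes, it passed in every one that keeps all 4 libraries. The adjusted p there ran from 2.4e-11 (edgeR with the replicate number as a block) to 0.024 (edgeR on library totals). With 1 library left out, the log2 fold change ranged from -1.28 to -0.82. Such fits keep a single library in 1 group, so only the size is given. Snhg17, a host on the other strand 14191 bases away, had a log2 fold change of 0.06 (95% interval -0.25 to 0.36, adjusted p = 0.87). Ralgapb on the other side, 23356 bases away, had -0.30 (SE 0.11, adjusted p = 0.17). No snoRNA row of the table lies inside Snhg11, although GENCODE places 2 snoRNA genes there.

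Snhg3 hosts the H/ACA snoRNAs Snora73a and Snora73b, which take part in the processing of 18S ribosomal RNA. Its row, chr4:132351933-132353686 on the minus strand, has 437 bases of exon. It had 41.8 and 41.0 CPM in shScramble against 28.1 and 27.8 CPM in shYthdf2. The replicates of each group were nearly equal. Snhg3 fell to 0.674 of control, a log2 fold change of -0.57 (SE 0.12, 95% interval -0.85 to -0.29, adjusted p = 0.039). It passed in 11 of 13 other settings. It did not pass without shScramble replicate 1 or 2, with log2 fold changes of -0.55 and -0.58 in fits that keep a single shScramble library. The rows of the hosted snoRNAs had log2 fold changes of -0.09 for Snora73a (SE 0.22, adjusted p = 0.86) and -0.26 for Snora73b (SE 0.18, adjusted p = 0.46). Poly(A)-selected libraries recover mature snoRNAs poorly, so these rows do not stand for the mature RNAs. The flanking genes Rcc1 (-0.01) and Phactr4 (-0.24) did not pass. Snhg3 lies 139677 bases from Ythdf2 on the same chromosome, and Snhg12, 96422 bases from Ythdf2, had a log2 fold change of 0.01 (95% interval -0.32 to 0.34).

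**Figure D2:**
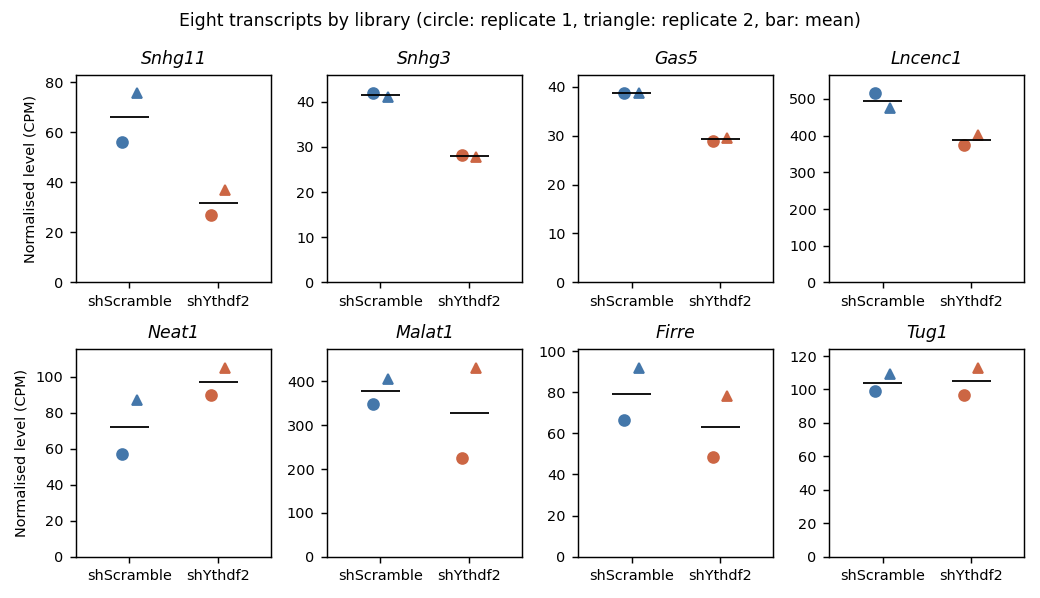
Level in CPM of Snhg11, Snhg3, Gas5, Lncenc1, Neat1, Malat1, Firre and Tug1 in each library (circles replicate 1, triangles replicate 2, bars the group mean of 2 libraries). The groups do not overlap for the first 5, while the shYthdf2 libraries of Malat1 lie at 226 and 431 CPM, on both sides of the shScramble libraries.

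Gas5, a 5′ TOP lncRNA first found in growth-arrested cells and the host of a row of box C/D snoRNAs, came next. It had 38.6 CPM in both shScramble libraries and 28.9 and 29.5 CPM in shYthdf2. The groups were apart, but the log2 fold change of -0.40 (SE 0.13, 95% interval -0.68 to -0.12) did not pass over all genes (adjusted p = 0.11). Zbtb37, which starts 263 bases away on the other strand, had 0.28 (adjusted p = 0.36). This neighbour was looked up after the values of Gas5 were seen.

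Among the other hosts, none passed. Snhg8, host of Snora24, had 11.4 and 12.8 CPM in shScramble against 8.48 and 9.61 CPM in shYthdf2 (log2 fold change -0.41, adjusted p = 0.27). Snhg7, which holds Snora17 and Snora43, had 9.75 and 10.9 against 8.48 and 8.22 CPM (-0.31, adjusted p = 0.43). Snhg4, host of Snora74a, had 20.2 and 23.9 against 18.7 and 19.5 CPM (-0.21, adjusted p = 0.51). In each of these the groups did not overlap, and the difference did not pass.

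For 4 other hosts the log2 fold change was near 0. Snhg1, a host of several box C/D snoRNAs, had 45.5, 42.1, 48.9 and 42.4 CPM in the order shScramble 1 and 2, shYthdf2 1 and 2 (log2 fold change 0.06, 95% interval -0.22 to 0.34). Snhg5, host of U50-type snoRNAs, had 61.5, 52.3, 59.4 and 50.5 CPM (-0.05, 95% interval -0.35 to 0.25). Both were ordered by replicate number and not by hairpin. Dancr, known as a brake on differentiation, had 19.4, 17.1, 18.8 and 18.1 CPM (0.01, 95% interval -0.34 to 0.37). Snhg12, which holds 4 snoRNA rows, had 27.1, 24.8, 27.8 and 24.3 CPM. For these hosts the intervals leave out a change as large as that of Snhg11.

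On the positive side, Snhg15 had 16.3 and 12.3 CPM in shScramble against 20.5 and 15.6 CPM in shYthdf2 (0.33, SE 0.21, adjusted p = 0.40), with overlapping groups. Snhg16, host of the Snord1 family, had 20.7 and 19 against 24.1 and 21.1 CPM (0.19, adjusted p = 0.55). Snhg10, with 17 to 32 reads a library, had 0.20 with an interval of -1.02 to 1.42, too wide to place it. Snhg20 had 24.2, 33.6, 25.9 and 25.2 CPM (-0.18, adjusted p = 0.61). Snhg14, the long host that runs through the imprinted Snord116 cluster toward Ube3a, had -0.08 (95% interval -0.45 to 0.30). For Snhg14, 15.7% of its exon bases lie under exons of other genes, and for Snhg6 (-0.15, adjusted p = 0.83) 75.7% do, all Mcmdc2. Snhg9 had 1 read in all 4 libraries together, and Snhg18 had 11, 5, 3 and 2 reads.

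Over the 17 tested hosts the median log2 fold change was -0.08, from -1.04 to 0.33, with 10 negative and 7 positive. The summed level of all hosts was 444 and 456 CPM in shScramble and 399 and 378 CPM in shYthdf2. The shYthdf2 sums were below both control sums. The larger part of this difference came from 3 hosts: by group mean, Snhg11 had 65.9 and 31.9 CPM, Snhg3 41.4 and 27.9 CPM, and Gas5 38.6 and 29.2 CPM. Snhg3, Gas5, Snhg7 and Snhg8, in which the shYthdf2 libraries lay below, have pyrimidine runs of at least 5 bases at a start, for Gas5 at the second of its starts alone. So do Snhg12, Snhg1, Snhg5, Snhg10 and Snhg17, whose groups overlapped, and Snhg16, in which both shYthdf2 libraries lay above both controls. Snhg17 has such a run at a single start, with 3 bases at its other start. Among hosts with a sequence at hand and no such run, the log2 fold change was -1.04 for Snhg11. It was 0.01 for Dancr, -0.08 for Snhg14, 0.33 for Snhg15 and -0.18 for Snhg20. Of the 12 tested hosts with a snoRNA row inside, the median was -0.11, and of the 5 without one it was -0.05. 12 snoRNA rows inside members were tested, 0 of them passed, and their fold changes ranged from -0.99 (Snora74a, 12 to 42 reads a library) to 0.10. Over all 71 tested snoRNA rows, the median was -0.09, with 0 called in edgeR and 0 at an unadjusted p under 0.05.

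**Figure D3:**
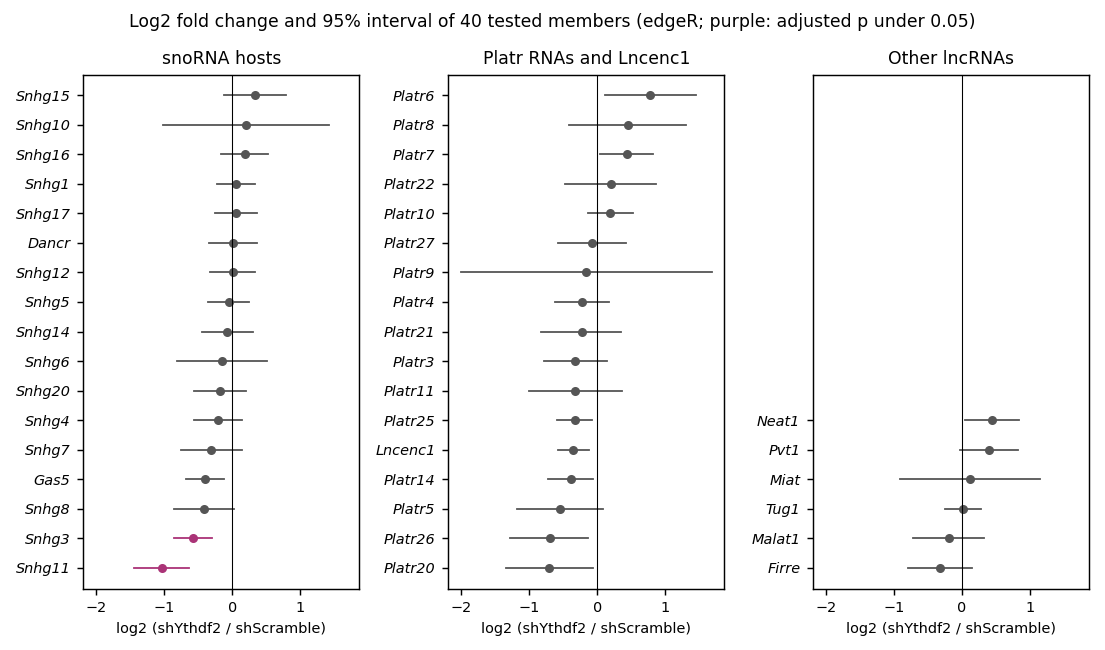
Log2 fold change (points) with its 95% interval (bars) for the 17 tested hosts, the 17 tested Platr RNAs and Lncenc1, and the 6 other tested lncRNAs, each in order of size. Snhg11 and Snhg3 (purple) are the members with an adjusted p under 0.05, and Platr9 and Snhg10 have the widest intervals.

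In the ESC-enriched class, no transcript had an adjusted p under 0.05 in the test without a covariate. Lncenc1, chr13:97434970-97497664, had 515 and 476 CPM in shScramble against 374 and 403 CPM in shYthdf2, from 12802 to 18549 reads a library. Every shYthdf2 value was below every control value, at 0.785 of control, and with a log2 fold change of -0.35 (SE 0.10, 95% interval -0.58 to -0.12) the adjusted p was 0.094. It passed in 4 of 13 other settings, among them DESeq2 (adjusted p = 0.026). These 4 include the fit without shYthdf2 replicate 2, which keeps a single shYthdf2 library. With 1 library left out, the log2 fold change of Lncenc1 ranged from -0.41 to -0.29. The nearest tested named genes were looked up after its values were seen. Enc1, 181930 bases away, rose from 142 to 222 CPM (log2 fold change 0.65, SE 0.13, adjusted p = 0.031), and Arhgef28 had 0.96 (SE 0.28, adjusted p = 0.092).

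Of the Platr RNAs, Platr14 is among the more abundant and had 42.3 and 53.9 CPM in shScramble against 34.3 and 39.1 CPM in shYthdf2 (-0.39, SE 0.15, adjusted p = 0.17). Platr25 had 63.4 and 59.4 against 46.1 and 51.5 CPM (-0.33, SE 0.12, adjusted p = 0.15). Platr3 had 16.1 and 11.4 against 11.2 and 10.8 CPM (-0.32, SE 0.21, adjusted p = 0.43). All 3 had both shYthdf2 libraries below both controls. The most negative values belonged to low-count RNAs. Platr20 had 6.19 and 7.55 CPM against 3.22 and 5.20 CPM (-0.71, SE 0.29, adjusted p = 0.20), Platr26 had 5.39 and 5.90 against 3.66 and 3.27 CPM (-0.70, SE 0.26, adjusted p = 0.16), and Platr5 had 4.86 and 3.97 against 3.25 and 2.79 CPM (-0.55, SE 0.28, adjusted p = 0.31). None of these differences passed. Gm12569, which starts 153 bases from Platr20 on the other strand, had a log2 fold change of -0.79 (SE 0.21, adjusted p = 0.065) beside the -0.71 of Platr20.

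Other Platr RNAs went the opposite way. Platr6 had 2.28 and 3.24 CPM in shScramble against 5.12 and 4.33 CPM in shYthdf2 (0.78, SE 0.30, adjusted p = 0.18). Platr7 had 21 and 16 against 27.0 and 23.3 CPM (0.44, SE 0.18, adjusted p = 0.20). Platr8 had 1.47 and 1.08 against 1.70 and 1.79 CPM (0.45, SE 0.39, adjusted p = 0.56). In these 3 the shYthdf2 libraries were above both controls. The abundant Platr10 had 49.3, 38.0, 46.4 and 53.4 CPM (0.19, 95% interval -0.14 to 0.53), with overlapping groups. Platr27 had 7.05, 7.05, 6.87 and 6.51 CPM (-0.08, 95% interval -0.57 to 0.42). Platr9, with 4 to 12 reads a library, cannot be placed (-0.16, 95% interval -2.01 to 1.69). The remaining tested ones, Platr4, Platr11, Platr21 and Platr22, ranged from -0.32 to 0.20 and overlapped between groups. Platr29 had 2, 2, 8 and 4 reads, and Platr30 had 4, 0, 4 and 0.

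Over the 17 tested ESC-enriched transcripts, 12 had a negative and 5 a positive log2 fold change, with a median of -0.23. The groups did not overlap for 8 that were lower (47.1%, where 25.5% of all genes tested were) and for 3 that were higher (17.6%, where 26.2% were). A similar tilt was seen in lncRNA rows that are no members, with a mean of at least 1 CPM. In those, 31.0% were lower without overlap and 16.8% higher, and the median was -0.16. The summed level of the ESC-enriched class was 771 and 730 CPM in shScramble and 597 and 645 CPM in shYthdf2, of which Lncenc1 gave the larger part. In the list of 12 naive pluripotency factors, 2 were called lower, Klf5 (-0.52, adjusted p = 0.040) and Prdm14 (-0.51, adjusted p = 0.049). Of all genes tested, 1.49% were called lower. In the list 0 were called higher, where 2.43% of all genes tested were. Klf2 went the other way (0.50, adjusted p = 0.072), with both shYthdf2 libraries above both controls. The median over the list was -0.09, with 8 negative and 4 positive values.

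The other lncRNAs showed no called difference. Neat1, the scaffold of paraspeckles (chr19:5824708-5845480, minus strand), had 57.0 and 86.9 CPM in shScramble against 89.7 and 105 CPM in shYthdf2. The groups did not overlap, by a margin of 86.9 to 89.7 CPM. Its log2 fold change was 0.44 (SE 0.18, 95% interval 0.04 to 0.84, adjusted p = 0.20). The fold change of Neat1 stayed positive whichever library was left out, but its size varied. Leaving out a control library gave 0.16 (replicate 1) or 0.77 (replicate 2). Leaving out a shYthdf2 library gave 0.54 (replicate 1) or 0.32 (replicate 2). Each of these fits keeps a single library in 1 group, so only the size is given. The row is a single exon of 20773 bases and does not separate the short polyadenylated form from the long one.

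Malat1, its neighbour on chromosome 19, had 349 and 406 CPM in shScramble against 226 and 431 CPM in shYthdf2. The shYthdf2 libraries were the lowest and the highest of the 4. The log2 fold change was -0.20 (95% interval -0.73 to 0.32, adjusted p = 0.68). Without shYthdf2 replicate 1 it was 0.19 (adjusted p = 0.41), and without shYthdf2 replicate 2 it was -0.74 (adjusted p = 4.7e-08), a fit in which the lone shYthdf2 library is assumed to vary as the controls do. The mature 3′ end of Malat1 is not a common poly(A) tail, and how evenly poly(A) selection recovered it was not tested.

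Firre, an X-linked nuclear lncRNA that takes part in chromosome architecture, had 66.5 and 91.9 CPM in shScramble against 48.4 and 78.0 CPM in shYthdf2 (-0.32, SE 0.21, adjusted p = 0.43). The groups overlapped. The fold change of Firre stayed negative but depended on which library was dropped. Dropping control replicate 1 gave -0.54, and dropping control replicate 2 gave -0.07. For the depleted cells, dropping replicate 1 gave -0.02 and dropping replicate 2 gave -0.71. A lone library then stands for 1 group, so no p-value is given. Tug1 had 99.0 and 109 against 96.8 and 113 CPM (0.01, 95% interval -0.25 to 0.28), and Morc2a, which starts 375 bases from it on the other strand, had -0.02. Pvt1, the lncRNA beside Myc, had 9.08 and 10.9 against 12.8 and 13.5 CPM (0.40, SE 0.19, adjusted p = 0.27). Miat had 47, 79, 45 and 100 reads (0.12, 95% interval -0.92 to 1.15). Fendrr, a lncRNA of lateral mesoderm, had 1, 0, 4 and 0 reads, and Rmst, a neural lncRNA that partners with SOX2, had 2, 0, 0 and 0. Both lay at or near the limit of 3 reads.

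All 6 tested lncRNAs of this class were higher in replicate 2 than in replicate 1 in both groups. The median log2 difference between replicates was 0.37 in shScramble and 0.46 in shYthdf2. Of 18208 genes with a read in every library, 29.9% were higher in replicate 2 in both groups and 30.7% lower in both, and of the 17 hosts 5 were higher and 8 lower. The labels do not say what the replicate number stands for. Within replicate numbers, the log2 ratio of shYthdf2 to shScramble was 0.65 and 0.27 for Neat1, -0.63 and 0.09 for Malat1, -0.46 and -0.24 for Firre, -1.06 and -1.03 for Snhg11, and -0.58 and -0.56 for Snhg3. The ratios of Malat1 differed in sign.

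**Figure D4:**
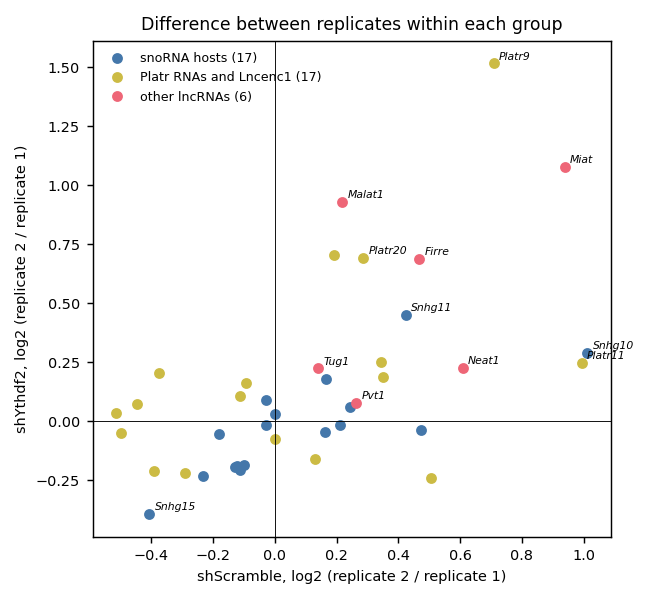
Log2 ratio of replicate 2 to replicate 1 in shScramble (horizontal) and in shYthdf2 (vertical) for each tested member, by class. All 6 other lncRNAs lie in the upper right part, with Malat1 higher by 0.22 in shScramble and 0.93 in shYthdf2, whereas hosts lie on both sides of 0.

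The members were set beside lncRNA rows that are no members. Among 730 such rows of RefSeq biotype lncRNA with a mean of at least 1 CPM, the median log2 fold change was -0.16, 451 were negative and 279 positive, and 19 were called lower (2.60%) and 10 higher (1.37%). The 40 members had the same median, with 24 negative and 16 positive values. They were not held to that limit, and Platr9 and Snhg10 lie below it (means of 0.241 and 0.762 CPM).

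**Figure D5:**
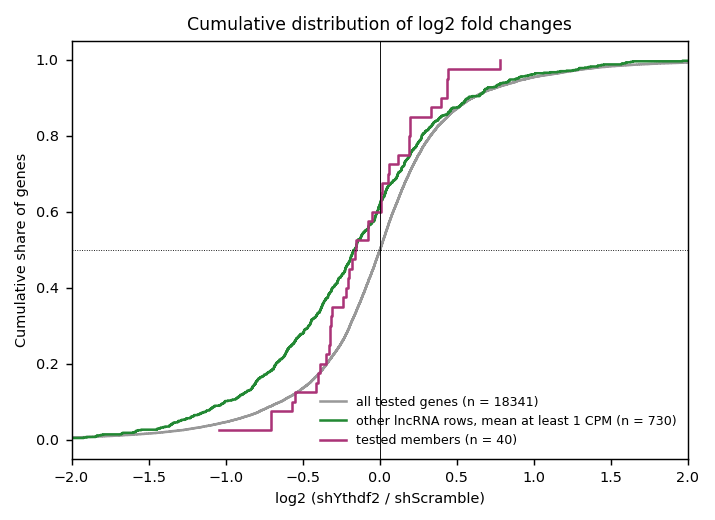
Cumulative share of genes against log2 fold change for all 18341 genes tested, for 730 other lncRNA rows and for the 40 tested members. The curves of the members and of the other lncRNA rows cross the middle line at -0.16 and that of all genes at 0.00. The members run from -1.04 to 0.78 and the more numerous other lncRNA rows from -3.66 to 2.87, beyond the axis.

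The proteins that act on these RNAs were read from the same fit. Of 18 genes for snoRNP proteins and their assembly factors, 16 had a positive log2 fold change, as did 9213 of all 18341 genes tested, with a median of 0.09 over the 18. Of the 18, 1 was called higher (Pih1d1, of the R2TP assembly complex, 0.51, adjusted p = 0.048), which is 5.56% beside 2.43% of all genes, and 0 lower. Of 10 genes for nonsense-mediated decay, 0 passed in edgeR, with 2 higher and 1 lower at an unadjusted p under 0.05 and a median of 0.08. Of 10 paraspeckle and nuclear speckle proteins, 0 passed in edgeR, and 0 at an unadjusted p under 0.05, with a median of 0.03.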

How the data were processed

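RNA from 4 libraries of E14 mouse ESCs (2 shScramble, 2 shYthdf2) was selected for poly(A) per the study's methods. The authors deposited raw read counts per gene. Per the file headers they were made with featureCounts 2.0.3 over exons of the mm10 RefSeq annotation, with no strand option, each read of a pair counted alone, and reads over several genes or places left out. This lowers rows whose exons overlap others. The submitters' processing notes name fastp 0.19.4, HISAT2 2.2.1 and DESeq2 1.40.2. All 4 count columns were used.

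Counts were fitted for all genes with edgeR 4.0.16 in R 4.3.3 (quasi-likelihood test, two-sided, TMM, filterByExpr with minimum count 10 and total 15, no covariate, threshold 0.05). The fit was tested on simulated data. Intervals are 95% from the model. An exact permutation test of 2 against 2 libraries cannot go below p = 0.333 and was not used. Alternatives were RLE, library totals and upper-quartile scaling, no filter, a mean of at least 1 CPM, DESeq2 1.42.0, limma-voom 3.58.1, halved counts, the replicate number as a block, the study's criteria, and leaving out each library.

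The members and lists were chosen with earlier results of these data known. Named were called members, the 11 members named singly, and, among other tested Snhg and Platr rows, the 5 most abundant per kilobase and the 3 most positive and most negative. Other members are given to complete the account. Coordinates of all 46 members equalled RefSeq GRCm38. snoRNAs inside hosts were counted on the same strand. Of the other marker lists, 0 of 6 primitive endoderm, 1 of 4 tested neural (Nes, higher), 0 of 4 tested mesoderm and 0 of 5 tested trophoblast markers were called. Another neighbouring gene, beside those given, is not reported here.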

Additional observations from a re-analysis of the deposited data

How the results depend on the processing

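Of 31 named and tested members over 13 other settings, 363 values kept direction and side of the threshold, 21 came to pass, 2 no longer passed (Snhg3, above) and 16 changed sign. Members called higher were 0, with 1 (Neat1) when no filter was used, and 0 to 1 when 1 library was left out. Members called lower were 2, with 1 (Snhg11) by the study's criteria in DESeq2, and 1 (without shScramble replicate 2) to 7 (without shYthdf2 replicate 2) when 1 library was left out. With the replicate number as a block, 3 were called higher (Neat1, Platr7 and Platr6). In the same fit 9 were called lower (Snhg11, Snhg3, Gas5, Lncenc1, Platr14, Platr20, Platr25, Platr26 and Firre). The shares of all genes given above (1.49% lower, 2.43% higher) belong to the main fit. No such share is given for the block or for fits with 1 library left out. The member counts there therefore do not set the members apart from other genes. Same-numbered libraries deviated together with a correlation of 0.225, but the labels name no shared batch, so the pairing is not established. The host median of -0.08 was -0.12 at a mean of at least 1 CPM and ranged from -0.18 to -0.06 with 1 library left out, and the median of Platr RNAs and Lncenc1 ranged from -0.35 to -0.08. The median of the 730 other lncRNA rows, an alternative chosen after seeing the data, was -0.05 without shYthdf2 replicate 1 and -0.31 without shYthdf2 replicate 2. Under upper-quartile scaling Snhg12 and Tug1 were each -0.01. With 1 library left out, signs also changed for Dancr (-0.07 to 0.11), Malat1 (-0.74 to 0.19), Miat (-0.53 to 0.66), Snhg1 (-0.05 to 0.16), Snhg10 (-0.23 to 0.78), Snhg12 (-0.09 to 0.10), Snhg20 (-0.39 to 0.08), Snhg5 (-0.17 to 0.07) and Tug1 (-0.10 to 0.12). The cause was not tested. Reads were few for Platr9, Snhg10 and the 6 members not tested.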

Other observations

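Protein-coding genes that hold snoRNAs in their introns give the same kind of host by another class of gene. Of 73 rows that hold a snoRNA row and are no members, 66 are protein-coding. Of the 73, 68 were tested (65 of them protein-coding). 2 were called lower (2.94%, where 1.49% of all genes tested were), both protein-coding. Eif4a2, a translation initiation helicase that holds Snora81 and Snord2, fell from 844 to 545 CPM (log2 fold change -0.63, SE 0.14, edgeR adjusted p = 0.039). Snx5, a retromer-associated sorting nexin that holds Snord17, fell from 655 to 462 CPM (-0.51, SE 0.10, edgeR adjusted p = 0.032). 0 were called higher in edgeR, where 2.43% of all genes tested were. At an unadjusted p under 0.05 stood 2 higher and 4 lower, and the median over the 68 was 0.01.

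The letters GGACT, a form of the motif in which m6A is commonly placed, were counted on the sense strand of the longest GENCODE transcript of 43 members. For some members this transcript is not the counted exons. It has 2556 bases for Gas5, 2728 for Snhg1 and 388 for Platr11. Their counted exons have 620, 476 and 4219 bases. The median was 0.77 per kilobase over the members and 1.02 over 16615 tested genes. Snhg11 had 11 in 5864 bases (1.88 per kilobase), and Snhg3 had 0 in 581 bases. The highest density among the tested members was that of Snhg15, with 2 in 675 bases (2.96 per kilobase), followed by Firre, with 16 in 5555 bases (2.88 per kilobase). The letters do not show that a site is methylated or bound.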
